A study of Mus musculus with 6 samples.

Results

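The 41 genes described here encode core components of the spliceosome and of the machinery that cleaves and polyadenylates pre-mRNA. They were chosen by gene symbol and not by a measured value, although earlier results of these data were known. Each was found once among the 59484 features of the expression table, of which 23505 carry a symbol. All 41 passed the filter on low values (a mean of at least 10 normalized counts over the 6 libraries), which left 18970 features for testing. Their means lay between 193 normalized counts for *Clp1* and 20693 for *Sf3b2*. They comprise 20 genes of 3′-end processing and 21 genes of the U1, U2 and U4/U6.U5 small nuclear ribonucleoproteins (snRNPs) and their partners.

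In splicing, the U1 snRNP recognises the 5′ splice site, the U2AF dimer recognises the polypyrimidine tract and the AG of the 3′ splice site, and the U2 snRNP with its SF3A and SF3B complexes recognises the branch site, before the U4/U6.U5 tri-snRNP joins and is remodelled into the catalytic spliceosome. At the 3′ end, CPSF binds the poly(A) signal and cuts the transcript, CstF and the cleavage factors CFIm and CFIIm bind around it, and a poly(A) polymerase adds the tail. Sam68 and its paralogue SLM2 are RNA binding proteins that regulate alternative splicing in the brain, and the comparison asks how strongly the general machinery was expressed when both were ablated.

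PolyA+ RNA of the cortex was sequenced from C57BL/6 embryos at embryonic day 18.5, 3 of them wild-type and 3 lacking both Sam68 and SLM2 (Sam68:Slm2 dKO). According to the study, the dKO was bred from mice heterozygous for the Sam68 null allele and homozygous for the Slm2 null allele. All offspring of that cross lack Slm2, so the wild-type embryos came from other litters. A difference between the genotypes cannot be told apart from a difference between litters or breeding lines. The ablation is constitutive, and the labels give neither litter nor sex, so *p*-values measure the spread between these 6 libraries. Whole cortex was used, in which fewer cells of a type cannot be told apart from less RNA per cell. A value is the number of reads on a gene scaled by the size factor of the library (normalized count). It covers the whole gene and carries no information on single exons or poly(A) sites.

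The libraries held between 31837922 and 40896541 reads. *Khdrbs1*, which encodes Sam68, had 8213 ± 232 normalized counts in the wild-type and 152 ± 41.5 in the dKO (SD, n = 3 per genotype), and *Khdrbs3*, which encodes SLM2, had 13841 ± 1252 and 6652 ± 366. *Khdrbs2*, which encodes the paralogue SLM1, had 1373 ± 207 and 7228 ± 631. The tissue was checked with 7 markers of cortical projection neurons, whose sum lay between 95549 and 127052 normalized counts in the wild-type and between 106212 and 139260 in the dKO libraries. Markers of the choroid plexus summed to between 18.1 and 109 and between 27.2 and 62.7. Replicate 1 of each genotype was tilted towards long genes. The Spearman correlation across genes between exonic length and the deviation of a library from the mean of all libraries was 0.22 in wild-type replicate 1 and 0.31 in dKO replicate 1, and lay between -0.22 and -0.10 in the other libraries (13974 features with a known length, which share their library and are not replicates).

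In the dKO cortex most of the 41 genes were slightly higher than in the wild-type cortex, and none passed the test over all features. The log2 fold change was above 0 in 38 genes, whereas this held for 50.6% of all features tested and for 60.6% of the 10377 features that carry a symbol and reach the lowest mean of the 41 genes. The median log2 fold change was 0.10, beside 0.0036 over all features and 0.039 over the named features of that level. The genes below 0 were *Cstf2*, *Nudt21* and *Papolg*. For *Nudt21* summed with a feature at its pseudogene, described below, the difference was 0.070 on the log2 scale. With limma, 0 of 41 genes had an adjusted *p* under 0.05, beside 0.1% of all features (19 of 18970), and the lowest adjusted *p* was 0.268 (*Luc7l3*). The quasi-likelihood test of edgeR on recovered reads also called 0 genes (0.1% of all features), with a lowest adjusted *p* of 0.244, and DESeq2 called 0 genes (1.06% of all features), with a lowest adjusted *p* of 0.0635.

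**Figure D1:**
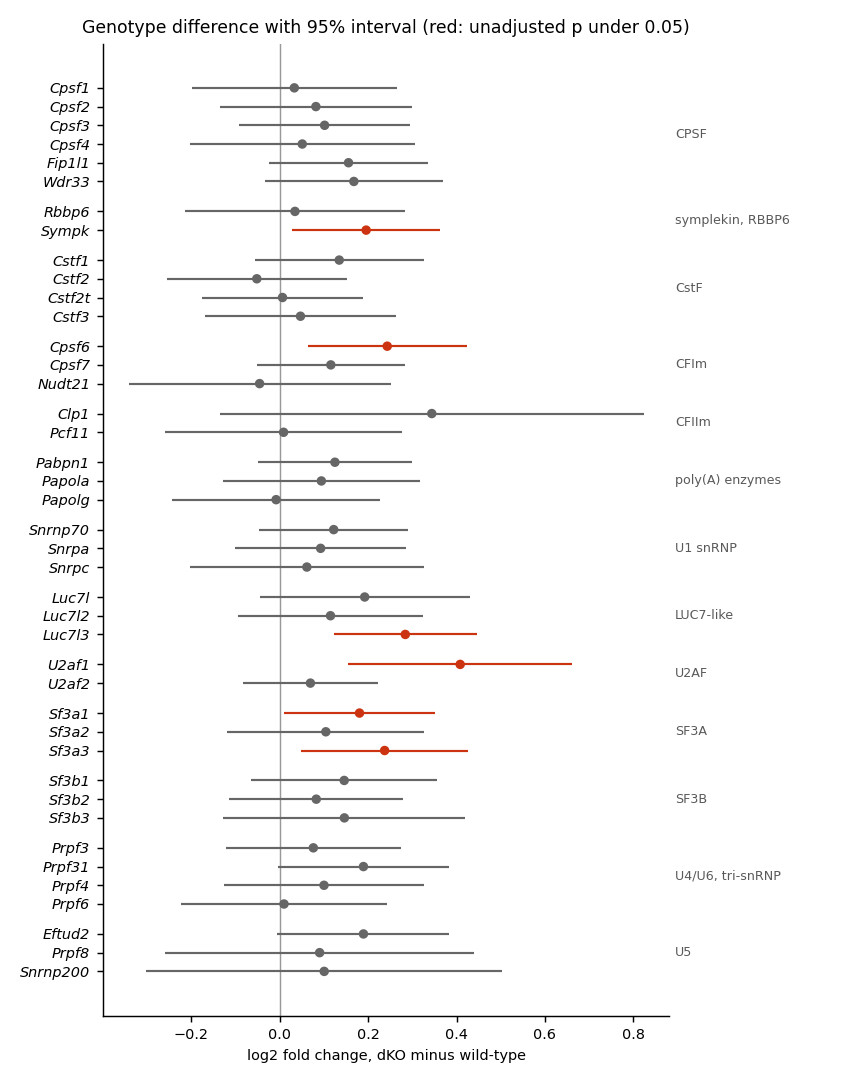
Log2 fold change (dKO minus wild-type, x axis) of the 41 genes grouped by complex, with 95% intervals from limma over 3 libraries per genotype. Red marks the 6 genes at an unadjusted p under 0.05. All 21 spliceosome genes and 17 of 20 genes of 3′-end processing lie above 0, and 35 of the 41 intervals cross 0.

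At an unadjusted *p* under 0.05 in limma, 6 genes were higher in the dKO (*Luc7l3*, *U2af1*, *Cpsf6*, *Sf3a3*, *Sympk* and *Sf3a1*) and 0 were lower, beside 4.92% of all features higher, 6.58% lower and 11.5% in either direction. DESeq2 placed 6 and edgeR 8 genes under this limit (11.6% and 11.7% of all features). All 3 dKO libraries lay above all 3 wild-type libraries in 15 genes, beside 7.89% of all features and 10.2% of the named features of that level, and below them in 0 genes, beside 8.48%. For a single gene such a separation gives *p* = 0.1 in an exact permutation test, the smallest value that 3 against 3 libraries allow. The differences were small: 38 of 41 genes differed by less than 1.2-fold, and the 95% interval lay within 1.5-fold in either direction for 39 of them, the exceptions being *Clp1* and *U2af1*. Without wild-type replicate 1 or wild-type replicate 3 the number at an unadjusted *p* under 0.05 was 3 each, and without dKO replicate 3 it was 2. The share of all features at this limit in those fits is not given here, so these counts have no background beside them. *Luc7l3* and *U2af1* were the 2 genes that stayed under this limit whichever library was left out.

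**Figure D2:**
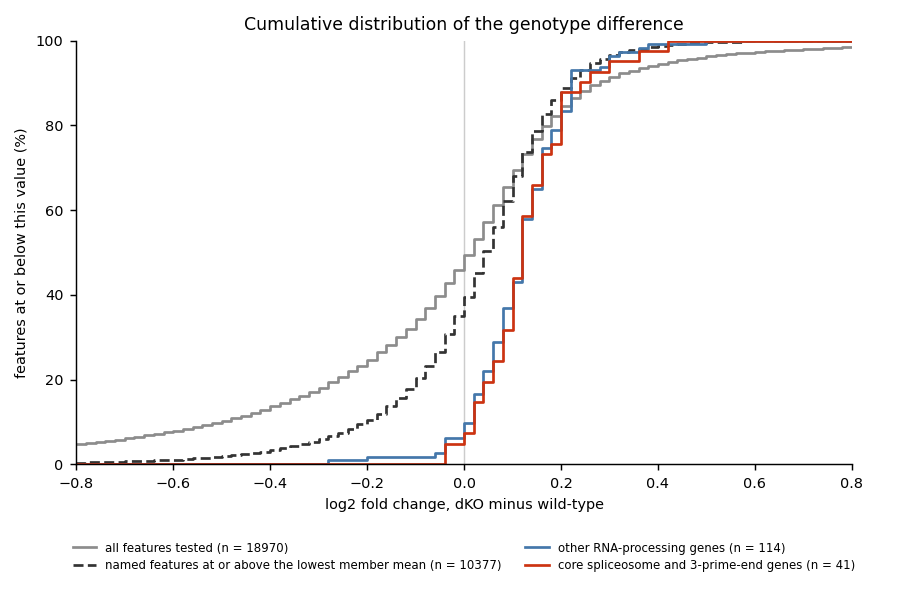
Share of features (y axis, %) at or below each log2 fold change (x axis, dKO minus wild-type). At a log2 fold change of 0 the curve stands at 7.32% for the 41 genes, 9.65% for 114 other RNA-processing genes, 39.4% for 10377 named features of that level and 49.4% for all 18970 features tested.

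The shift was largest in 1 library. dKO replicate 1 was the highest of the 6 libraries in 27 of the 41 genes, beside 20.0% of all features, whereas dKO replicate 3 was the highest in 10, dKO replicate 2 in 2, and the wild-type libraries in 2. Against the mean of the wild-type libraries, the median over the 41 genes was 0.19 on the log2 scale in dKO replicate 1, 0.039 in dKO replicate 2 and 0.076 in dKO replicate 3, beside medians over all features between -0.00035 and 0.0032 in these libraries. Without dKO replicate 1, 28 of 41 genes lay above 0, the median log2 fold change was 0.062, and 6 genes had an unadjusted *p* under 0.05. These 6 included *Luc7l3*, *U2af1*, *Cpsf6* and *Sf3a3*, but *Clp1* and *Prpf31* stood in place of *Sympk* and *Sf3a1*. With the trend against exonic length removed from each library, dKO replicate 1 was the highest in 22 genes (19.4% of all features), 37 genes were above 0, the median was 0.10 and 8 genes had an unadjusted *p* under 0.05. The share of all features at an unadjusted *p* under 0.05 is not given here for this fit or for the fit without dKO replicate 1. The 41 genes had a median exonic length of 6147 bases, beside 4486 bases for the features with a known length.

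**Figure D3:**
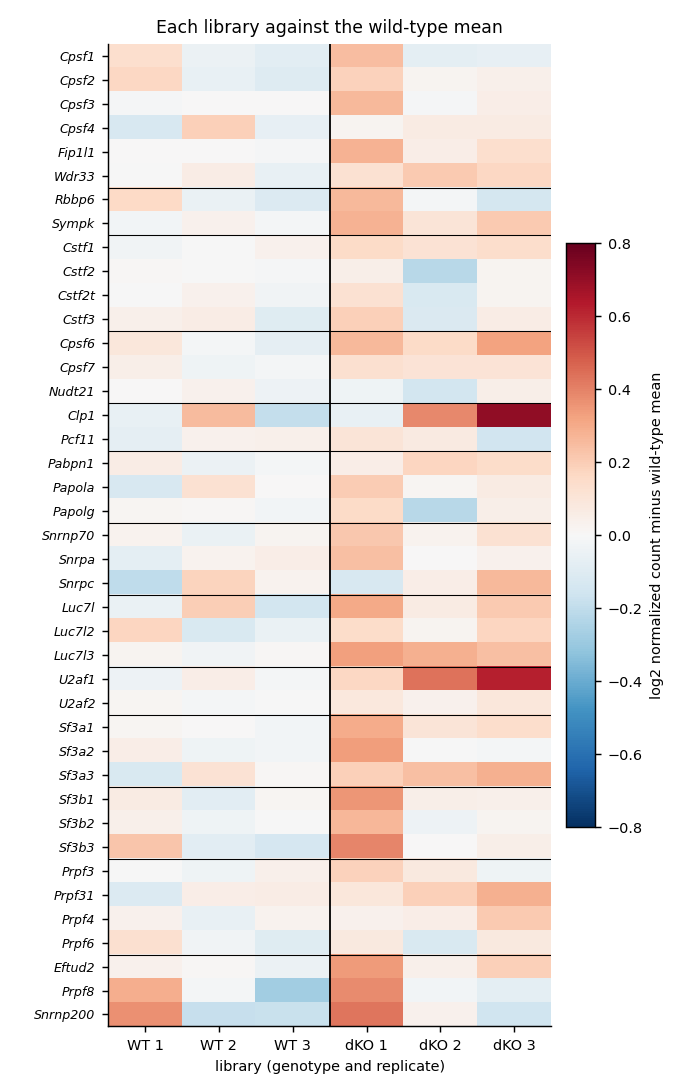
Each of the 41 genes (rows, grouped by complex between the black lines) in each library (columns) as log2 normalized count minus the mean of the wild-type libraries. The column of dKO replicate 1 is the reddest, with a median of 0.19, and *Prpf8*, *Snrnp200* and *Sf3b3* are high in replicate 1 of both genotypes.

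Genes of 3′-end processing were examined first. In the 6 genes of the CPSF complex the log2 fold changes lay between 0.033 and 0.17, and none had an unadjusted *p* under 0.05. *Cpsf1*, its large scaffold subunit and the highest CPSF gene per kb of exon, had 3986, 3511 and 3431 normalized counts in the wild-type and 4320, 3436 and 3467 in the dKO libraries. Its highest value in each genotype was replicate 1 and the genotypes overlapped, with a log2 fold change of 0.033 (SE 0.11, adjusted *p* = 0.925 in limma). *Wdr33*, whose product contacts the poly(A) signal, had 863, 900.1 and 827 normalized counts in the wild-type and 940.2, 999 and 969.6 in the dKO libraries. The 2 groups did not overlap, and the log2 fold change was 0.17 (SE 0.091, adjusted *p* = 0.504 in limma). *Wdr33* and *U2af1* are on the study's list of genes with altered splicing in the dKO cortex, which was drawn up from these same embryos and is not independent evidence of a direction. *Fip1l1*, which links CPSF to the poly(A) polymerase, was the other CPSF gene without overlap, at 0.16. The endonuclease gene *Cpsf3* stood at 0.10, its partner *Cpsf2* at 0.082 and *Cpsf4*, which binds the poly(A) signal with *Wdr33*, at 0.051.

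*Sympk* encodes symplekin, the scaffold that holds CPSF and CstF together. It had 7186, 7493 and 7235 normalized counts in the wild-type and 8857, 7838 and 8431 in the dKO libraries, so that the groups did not overlap and dKO replicate 1 was the highest. The log2 fold change was 0.20 (95% interval 0.028 to 0.36, adjusted *p* = 0.393 in limma), and its unadjusted *p* was no longer under 0.05 without wild-type replicate 1, wild-type replicate 3, dKO replicate 1 or dKO replicate 3. *Rbbp6*, needed to activate cleavage, stood at 0.035. In CstF, which binds downstream of the cleavage site, the log2 fold change was 0.13 for *Cstf1*, whose groups did not overlap, and 0.047 for the bridging subunit *Cstf3*. The RNA-binding subunit is encoded by the paralogues *Cstf2* and *Cstf2t*. *Cstf2* had 1906, 1895 and 1887 normalized counts in the wild-type and 1955, 1625 and 1927 in the dKO libraries, and *Cstf2t* had 6854, 7034 and 6723 in the wild-type and 7478, 6305 and 6970 in the dKO libraries. In both, dKO replicate 1 was the highest and dKO replicate 2 the lowest of all libraries, and the log2 fold changes were -0.052 and 0.0065.

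CFIm is built from *Nudt21*, which binds UGUA motifs upstream of poly(A) sites, and either of the larger subunits *Cpsf6* and *Cpsf7*. *Cpsf6* had 4498, 4176 and 4029 normalized counts in the wild-type and 5053, 4700 and 5287 in the dKO libraries. Every dKO library lay above every wild-type library, with a log2 fold change of 0.24 (95% interval 0.064 to 0.42, adjusted *p* = 0.357 in limma), and the unadjusted *p* was above 0.05 without wild-type replicate 3 or dKO replicate 3. *Cpsf7* had 2160, 2043 and 2072 normalized counts in the wild-type and 2289, 2251 and 2257 in the dKO libraries. Its groups did not overlap either, at a log2 fold change of 0.12 (SE 0.076, adjusted *p* = 0.573 in limma). The ratio of *Cpsf6* to *Cpsf7* was 2.02 ± 0.0709 in the wild-type and 2.21 ± 0.128 in the dKO (SD, n = 3 per genotype), again without overlap (*p* = 0.1, exact permutation test).

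*Nudt21* had 274, 280.3 and 266 normalized counts in the wild-type and 267, 247 and 282 in the dKO libraries, which overlapped (log2 fold change -0.045, SE 0.13). Its level per kb of exon was the lowest of all 41 genes, and copies of its sequence were looked up after this value was seen. Of the 100-base windows of its transcripts, 10.8% also occur in *Gm7488*, a processed pseudogene on chromosome 3 from 21049565 to 21050248. An unnamed feature of the table that spans this pseudogene (21049448 to 21050528) carried 2661, 3068 and 2941 normalized counts in the wild-type and 2774, 3206 and 3191 in the dKO libraries, so that *Nudt21* held 8.30% of the sum of both. The sum was 3163 ± 209.9 in the wild-type and 3322 ± 244 in the dKO (SD, n = 3 per genotype, *p* = 0.5, exact permutation test), with a difference of 0.070 on the log2 scale. How reads were divided between the gene and the pseudogene was not tested.

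In CFIIm, *Clp1*, a polynucleotide kinase that also acts in tRNA splicing, was the member with the fewest reads. It had 161, 199.8 and 146 normalized counts in the wild-type and 161, 219 and 275 in the dKO libraries, which overlapped and spread widely within the dKO. Its log2 fold change of 0.34 had the widest interval of the 41 genes (-0.13 to 0.82, adjusted *p* = 0.559 in limma). *Pcf11*, which couples cleavage to transcription termination, stood at 0.0089. *Papola*, the main nuclear poly(A) polymerase, had 982, 1170 and 1078 normalized counts in the wild-type and 1235, 1087 and 1124 in the dKO libraries, and its paralogue *Papolg* had 1289, 1281 and 1257 in the wild-type and 1416, 1093 and 1320 in the dKO libraries. Both overlapped, at log2 fold changes of 0.094 and -0.0079. *Pabpn1*, the nuclear poly(A) binding protein that sets tail length, had 2626, 2440 and 2494 normalized counts in the wild-type and 2612, 2843 and 2792 in the dKO libraries and a log2 fold change of 0.13. The lowest dKO value lay just below the highest wild-type value. A part of its transcript windows (16.3%) is shared with *Gm20521*, an annotated readthrough locus with *Bcl2l2*, so its count is uncertain.

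Over the 20 genes of 3′-end processing together, 17 were above 0 with a median log2 fold change of 0.088, 2 had an unadjusted *p* under 0.05 and 6 had groups that did not overlap. For the 21 spliceosome genes these figures were 21, 0.12, 4 and 9. The difference between both arms was not tested. Of all features, 4.92% were higher in the dKO at an unadjusted *p* under 0.05 in limma, and 7.89% were higher without overlap. For named features at or above the lowest mean of the genes described here, these shares were 6.61% and 10.2%.

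**Figure D4:**
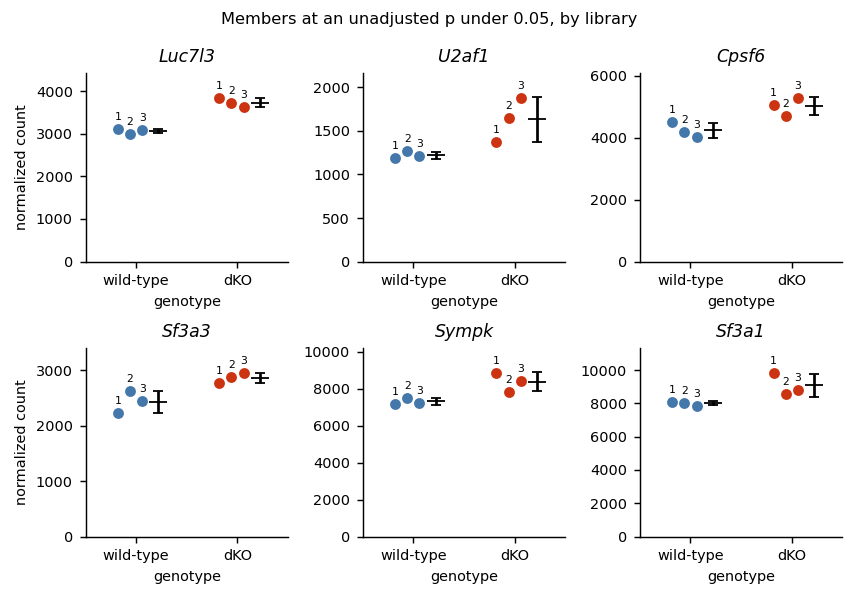
Normalized counts (y axis, from 0) of the 6 genes at an unadjusted p under 0.05 in limma, by genotype (x axis). Points are libraries marked with their replicate number, and the bars beside them give mean and SD (n = 3). In *U2af1* dKO replicate 1 is the lowest of the dKO libraries, at 1369, and in *Luc7l3*, *Sympk* and *Sf3a1* it is the highest.

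Among the spliceosome genes, the proteins of the U1 snRNP showed small differences. *Snrpa*, the highest of them per kb of exon, had 4025, 4343 and 4405 normalized counts in the wild-type and 5033, 4262 and 4353 in the dKO libraries, and only dKO replicate 1 stood above the wild-type range. Its log2 fold change was 0.093 (SE 0.087, adjusted *p* = 0.694 in limma). *Snrnp70*, which binds the first stem-loop of U1 RNA, stood at 0.12 without overlap of the groups, and *Snrpc*, which stabilises pairing with the 5′ splice site, at 0.062 with overlap.

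The 3 LUC7-like proteins associate with U1 and influence which 5′ splice sites are used. *Luc7l3* (GSMG0007244, chromosome 11 from 94291073 to 94321965, reverse strand, mm10 coordinates as in the deposited table) had the lowest *p* of the 41 genes. It had 3114, 3003 and 3078 normalized counts in the wild-type and 3845, 3730 and 3625 in the dKO libraries. Both groups were tight and did not overlap, with a log2 fold change of 0.28 (SE 0.073, 95% interval 0.12 to 0.45). The adjusted *p* was 0.268 in limma and 0.0635 in DESeq2, so the gene did not pass either test. *Luc7l* had 1729, 2060 and 1621 normalized counts in the wild-type and 2217, 1874 and 2074 in the dKO libraries, and *Luc7l2* had 2931, 2387 and 2509 in the wild-type and 2877, 2644 and 2932 in the dKO libraries. Both overlapped, at log2 fold changes of 0.19 and 0.12. The ratio of *Luc7l3* to *Luc7l2* was 1.18 ± 0.105 in the wild-type and 1.33 ± 0.0877 in the dKO (SD, n = 3 per genotype), with overlap (*p* = 0.2, exact permutation test).

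U2AF is a dimer in which *U2af2* binds the polypyrimidine tract and *U2af1* the AG of the 3′ splice site. *U2af1* (GSMG0017361, chromosome 17 from 31647082 to 31658764, reverse strand) had the largest log2 fold change of the 41 genes, 0.41 (SE 0.11, 95% interval 0.15 to 0.66). It had 1186, 1263 and 1207 normalized counts in the wild-type and 1369, 1644 and 1879 in the dKO libraries. The groups did not overlap, the wild-type libraries lay close together and the dKO libraries spread. In contrast to most of the other genes dKO replicate 1 was here the lowest of the dKO libraries, and without it the adjusted *p* in limma was 0.071. With all libraries it was 0.307 in limma and 0.0763 in DESeq2. *U2af2* had 6898, 6769 and 6829 normalized counts in the wild-type and 7242, 7000 and 7270 in the dKO libraries, which did not overlap but differed by only 0.070 (95% interval -0.084 to 0.22, adjusted *p* = 0.713 in limma). The ratio of *U2af1* to *U2af2* was 0.178 ± 0.00748 in the wild-type and 0.227 ± 0.0353 in the dKO (SD, n = 3 per genotype), without overlap (*p* = 0.1, exact permutation test). Of the transcript windows of *U2af1*, 15.8% also occur in the processed pseudogene *Gm10232* on chromosome 17, at whose position the table lists no feature, so the count of *U2af1* is uncertain to that extent.

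The promoters of *Luc7l3* and *U2af1* are shown because these genes had the lowest *p* and the largest fold change. They are RefSeq windows of GRCm38.p6 from 250 bases before to 50 after the annotated start, 5′ to 3′ (chr11:94321914-94322213 on the reverse strand, and chr17:31658715-31659014 on the reverse strand). Capitals mark GC boxes (GGGCGG, either strand) and CCAAT boxes (CCAAT, either strand). The window of *Luc7l3* holds 4 GC boxes, and that of *U2af1* holds 3 GC boxes and 2 overlapping CCAAT boxes.
Luc7l3: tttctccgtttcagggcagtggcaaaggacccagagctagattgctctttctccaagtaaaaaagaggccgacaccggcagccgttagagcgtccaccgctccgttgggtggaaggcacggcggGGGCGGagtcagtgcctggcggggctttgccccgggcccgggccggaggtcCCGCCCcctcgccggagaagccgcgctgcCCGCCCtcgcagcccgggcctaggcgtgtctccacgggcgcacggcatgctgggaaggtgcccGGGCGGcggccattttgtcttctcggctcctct
U2af1: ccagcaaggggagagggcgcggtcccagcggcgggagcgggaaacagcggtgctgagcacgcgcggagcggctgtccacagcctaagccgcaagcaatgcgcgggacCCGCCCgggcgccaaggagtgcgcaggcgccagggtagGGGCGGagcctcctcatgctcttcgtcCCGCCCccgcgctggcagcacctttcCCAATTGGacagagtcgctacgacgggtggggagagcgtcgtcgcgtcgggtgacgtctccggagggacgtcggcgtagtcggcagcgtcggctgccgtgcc

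SF3A joins the U2 snRNP as a trimer of *Sf3a1*, *Sf3a2* and *Sf3a3*. Of its 3 genes 2 had an unadjusted *p* under 0.05 in limma, beside 4.92% of all features higher at this limit. The complex was not tested as a whole. *Sf3a3* had 2231, 2625 and 2440 normalized counts in the wild-type and 2767, 2867 and 2952 in the dKO libraries. No value overlapped, and the log2 fold change was 0.24 (95% interval 0.049 to 0.43, adjusted *p* = 0.369 in limma). *Sf3a1* had 8100, 8028 and 7863 normalized counts in the wild-type and 9839, 8583 and 8815 in the dKO libraries, again without overlap, at 0.18 (95% interval 0.0088 to 0.35, adjusted *p* = 0.414 in limma). *Sf3a2* had 4172, 3922 and 3953 normalized counts in the wild-type and 5061, 4004 and 3967 in the dKO libraries. Only dKO replicate 1 stood above the wild-type range in *Sf3a2*, and its log2 fold change was 0.10 (SE 0.10). The unadjusted *p* of *Sf3a3* was above 0.05 without wild-type replicate 1 or dKO replicate 3, and that of *Sf3a1* was above 0.05 without any library other than dKO replicate 2.

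The SF3A promoters are printed to show how the genes of 1 complex compare. They are RefSeq windows of the same build and extent (chr11:4160104-4160403 on the forward strand, chr10:80798485-80798784 on the forward strand, and chr4:124714611-124714910 on the forward strand). Capitals mark the ETS core CCGGAAG, the YY1 core AAGATGGC and the GC box GGGCGG, each on either strand. All 3 windows hold 1 ETS core, and *Sf3a1* also holds 1 YY1 core just after its start.
Sf3a1: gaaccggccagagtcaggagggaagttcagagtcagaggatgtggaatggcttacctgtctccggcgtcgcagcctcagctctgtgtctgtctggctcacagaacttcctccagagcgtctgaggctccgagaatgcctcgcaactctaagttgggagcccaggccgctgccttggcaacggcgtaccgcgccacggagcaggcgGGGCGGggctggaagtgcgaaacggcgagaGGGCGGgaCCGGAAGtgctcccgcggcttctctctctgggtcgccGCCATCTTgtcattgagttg
Sf3a2: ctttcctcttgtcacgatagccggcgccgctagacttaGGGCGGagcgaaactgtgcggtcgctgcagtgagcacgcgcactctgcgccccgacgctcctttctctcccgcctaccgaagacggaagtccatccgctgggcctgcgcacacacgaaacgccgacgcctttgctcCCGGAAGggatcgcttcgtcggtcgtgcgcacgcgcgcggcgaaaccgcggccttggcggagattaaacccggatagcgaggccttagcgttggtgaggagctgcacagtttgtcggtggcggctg
Sf3a3: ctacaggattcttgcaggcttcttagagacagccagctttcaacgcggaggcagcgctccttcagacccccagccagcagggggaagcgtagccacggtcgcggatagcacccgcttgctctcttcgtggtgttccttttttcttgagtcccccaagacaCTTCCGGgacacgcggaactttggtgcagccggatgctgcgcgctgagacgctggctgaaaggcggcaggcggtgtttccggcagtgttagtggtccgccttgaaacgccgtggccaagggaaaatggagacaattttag

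A RefSeq promoter window was matched for 36 of the 41 genes. *Cpsf1*, *U2af2*, *Eftud2*, *Luc7l* and *Wdr33* had none in the table used. The ETS core was in 38.9% of the 36 windows (14), beside 17.9% of 10277 windows of named genes of that level and 8.86% of all 32851 windows. The GC box was in 55.6%, beside 65.0% and 35.7%, and CCAAT in 36.1%, beside 37.5% and 37.4%. The YY1 core was in 8.33% (4.62% and 2.75%) and the TATA box TATAAA in 5.56% (6.46% and 13.6%). The median GC content was 60.3%, beside 52.7% over all windows. It is not given for the windows of named genes of that level, in which the GC box was also more frequent than over all windows. The window matched to *Luc7l2* lies 4390 bases from the start of its feature and has a GC content of 39.7%. A match describes letters in a window and is not a bound site.

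In SF3B, which holds the branch site, *Sf3b2* was the most abundant of the 41 genes. It had 20648, 19538 and 19984 normalized counts in the wild-type and 24144, 19527 and 20315 in the dKO libraries, with only dKO replicate 1 clearly above the wild-type range, and a log2 fold change of 0.083 (SE 0.089, adjusted *p* = 0.735 in limma). *Sf3b1*, which contacts the branch site helix, stood at 0.15, and *Sf3b3*, a scaffold subunit, at 0.15. *Sf3b3* lies across *Vac14* on the opposite strand, whose feature had a mean of 2777 normalized counts beside 4298 for *Sf3b3*. The libraries were prepared with a stranded kit, but whether the counting used strand is not given in the sources used here. *Cpsf7*, *Cstf2t*, *Fip1l1* and *Snrpa* also overlap named features of the opposite strand, which had means between 144 and 284 normalized counts.

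Of the U4/U6 and tri-snRNP proteins, *Prpf31*, which binds the U4 RNA, had the highest level per kb of exon. It had 2242, 2513 and 2521 normalized counts in the wild-type and 2577, 2770 and 2952 in the dKO libraries. The groups did not overlap, and the log2 fold change was 0.19 (95% interval -0.0037 to 0.38, adjusted *p* = 0.442 in limma). *Prpf4* stood at 0.10 without overlap, and its partner *Prpf3*, which binds the paired U4 and U6 RNAs, at 0.076 and the bridging protein *Prpf6* at 0.0099 with overlap. In the U5 snRNP, the GTPase gene *Eftud2* had 7089, 6974 and 6706 normalized counts in the wild-type and 8772, 7111 and 7885 in the dKO libraries. These did not overlap, although dKO replicate 2 exceeded wild-type replicate 1 by little, and the log2 fold change was 0.19 (95% interval -0.0049 to 0.38, adjusted *p* = 0.444 in limma). *Prpf8*, the scaffold of the catalytic centre, and *Snrnp200*, the helicase that unwinds U4 from U6, stood at 0.090 and 0.10 with the widest intervals of the spliceosome genes, -0.26 to 0.44 and -0.30 to 0.50. Both were high in replicate 1 of either genotype, *Prpf8* at 7026 and 7449 against 4739 to 5680 in the other 4 libraries.

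Levels between genes were compared as normalized counts per kb of exon, with lengths from GENCODE release M21. The regions that the authors counted are not given in the sources used here, so this scale is approximate. In wild-type cortex the levels ran from 51.1 for *Nudt21* to 2940 for *Sf3b2*, a 57.6-fold range with a median of 373. Above 1000 per kb stood 8 genes, and *U2af2* (1661), *Cstf2t* (1623) and *Sf3a2* (1511) followed *Sf3b2*. Below 100 per kb stood *Wdr33* (72.4), *Clp1* (63.2), *Pcf11* (57.0) and *Nudt21*, all of 3′-end processing. *Nudt21* held only 8.30% of its sum with the feature at its pseudogene, so its place here and the lower end of the range are uncertain. Among the other genes *Pcf11* was the lowest.

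**Figure D5:**
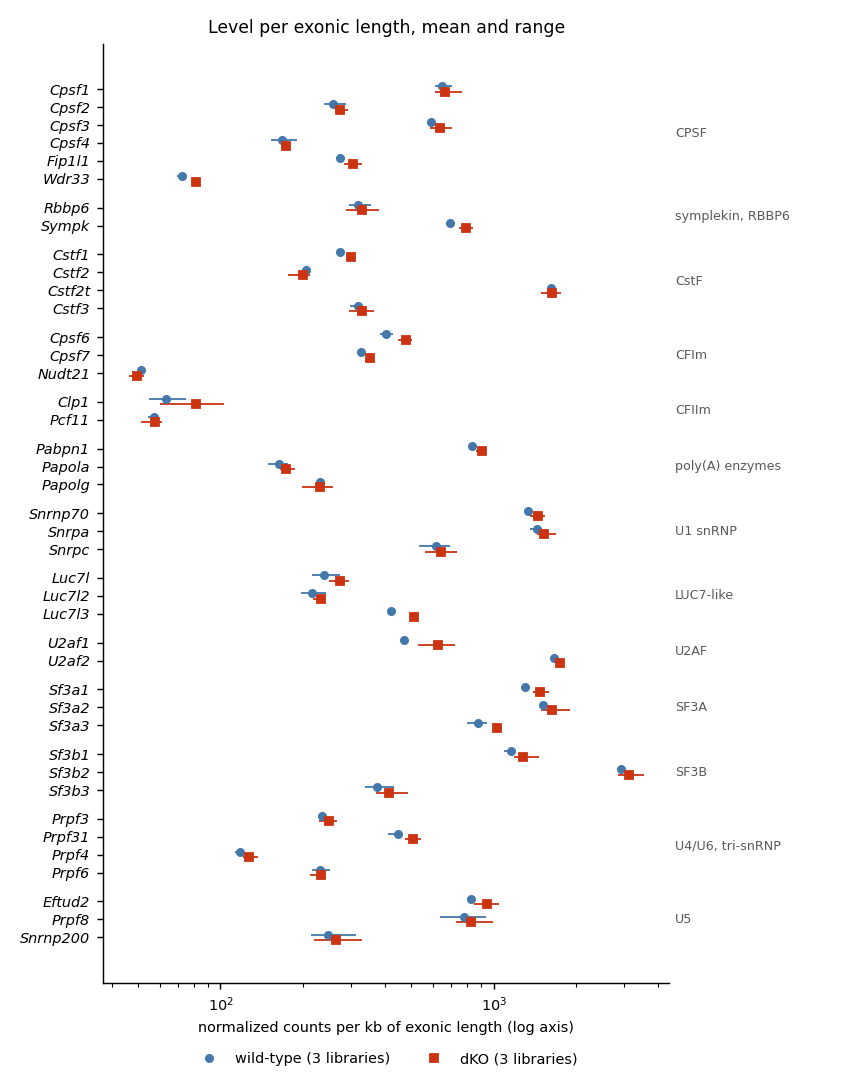
Mean (symbol) and range (line) of the normalized counts per kb of exonic length (x axis, log scale) in 3 wild-type (blue circles) and 3 dKO (red squares) libraries. Levels span 51.1 to 2940 in wild-type, and the genotypes differ by less than 1.2-fold in 38 of 41 genes. The lowest is *Nudt21*, whose count leaves out the feature at its pseudogene.

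Paralogues were compared per kb of exon. *Cstf2t* was 7.86-fold above *Cstf2* in the wild-type and 8.19-fold in dKO cortex, *Cpsf6* 1.24-fold and 1.35-fold above *Cpsf7*, and *Luc7l3* 1.96-fold and 2.20-fold above *Luc7l2*. *Papolg* was 1.43-fold and 1.33-fold above *Papola*, and the ratio overlapped between the genotypes (*p* = 0.5, exact permutation test), as did that of *Cstf2t* to *Cstf2* (exact permutation *p* = 0.2). The ratios of *Sf3a1* and of *Sf3a3* to *Sf3a2* overlapped between the genotypes as well (exact permutation *p* = 0.3 and 0.4).

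Other genes of the pathway were then examined in lists. Of 117 further genes in 12 lists, 114 passed the filter, 103 of them lay above 0, and the median log2 fold change was 0.11. With limma 0 of them had an adjusted *p* under 0.05, while 10 were higher (8.77%, beside 4.92% of all features and 6.61% of the named features of the level of the 41 genes) and 0 lower at an unadjusted *p* under 0.05. The groups did not overlap in 18 genes that were higher (15.8%, beside 7.89% of all features and 10.2% of those named features). They did not overlap in 1 that was lower (*Gemin2*, 0.877%, beside 8.48% and 6.20%). The number higher at an unadjusted *p* under 0.05 varied with the libraries included. It was 6 without wild-type replicate 1 (with 1 lower), 19 without wild-type replicate 2 and 3 without wild-type replicate 3, and 20, 7 and 3 without dKO replicates 1, 2 and 3. Across these omissions 90 to 104 of the 114 genes lay above 0, and the median was between 0.085 and 0.14. For these omissions, here and in the lists below, the share of all features at an unadjusted *p* under 0.05 is not given.

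All 9 proteins of the Sm ring and other snRNP proteins lay above 0, with a median of 0.22 and 3 genes at an unadjusted *p* under 0.05. Among them, the Sm core gene *Snrpb* had 5740, 5633 and 5870 against 6428, 6408 and 6901 normalized counts (wild-type against dKO) and *Snrpf* had 2141, 2463 and 2100 against 2473, 2699 and 2864, both without overlap. All 8 LSm proteins, which bind the U6 RNA or act in mRNA decay, lay above 0 (median 0.21, 2 or 25.0% at an unadjusted *p* under 0.05). The genes with the smallest *p* were *Lsm4* (0.30) and *Lsm8* (0.31). Without dKO replicate 1 the medians of these lists were 0.32 and 0.38, with 7 and 5 genes at this limit. Without dKO replicate 3 the Sm list had 0 genes at this limit, and without dKO replicate 2 the LSm list had 0.

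The median was 0.14 for 11 other U5 and tri-snRNP genes (all above 0, 1 at an unadjusted *p* under 0.05), with *Txnl4a* at 0.18 and *Sart3* at 0.17. It was 0.11 for 16 genes of the PRP19 and catalytic complexes (all above 0, 1 at this limit), with *Ctnnbl1* at 0.20 and *Bcas2* at 0.16, and 0.11 for 11 other U2 and branch site factors (9 above 0, 0 at this limit), with *Phf5a* at 0.22 and *Sf3b5* at 0.21. Of 5 helicases 4 lay above 0 and 2, *Dhx38* (0.20) and *Dhx16* (0.21), were at this limit. The median was 0.086 for 6 U1-associated factors (4 above 0), with *Tial1* at 0.10 and *Rbm25* at 0.14. It was 0.053 without wild-type replicate 1 and 0.033 without dKO replicate 1. Without wild-type replicate 3, 0 genes of the U5, PRP19 and helicase lists were at this limit.

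Lists nearer to the 3′ end and to RNA turnover followed, again beside 4.92% of all features higher at an unadjusted *p* under 0.05. The median was 0.10 for 9 other factors of 3′-end formation and termination (all above 0, 0 at an unadjusted *p* under 0.05), with *Zc3h14* at 0.13 and *Pabpc1* at 0.099. It was 0.065 for 14 Integrator subunits (11 above 0, 1 or 7.14% at this limit), with *Ints7* at 0.19 and *Ints8* at 0.17. It was 0.13 for 8 genes of the SMN complex (7 above 0, 0 at this limit), in which *Strap* stood at 0.15 and *Gemin2* at -0.29, and 0.090 for 8 genes of nonsense-mediated decay (7 above 0, 0 at this limit), with *Smg5* at 0.15. The median of the minor spliceosome was 0.038 (8 of 9 above 0, 0 at this limit), and its lowest gene was *Rnpc3* at -0.21, while *Zcrb1* stood at 0.068. Without wild-type replicate 1 the direction of the minor spliceosome turned, with 2 of 9 genes above 0, 1 lower at this limit and a median of -0.0059, and its median ranged up to 0.086 without wild-type replicate 2. Without dKO replicate 1 the median was 0.0029 for nonsense-mediated decay (4 of 8 above 0), 0.023 for the other factors of 3′-end formation and 0.023 for Integrator. That of nonsense-mediated decay was 0.041 without wild-type replicate 3 (5 of 8 above 0) and 0.17 without wild-type replicate 1, and that of the SMN complex was 0.078 without wild-type replicate 1 and 0.075 without dKO replicate 3.

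Markers of some cell types also stood apart between the genotypes, and their part in the values above was not tested. Their counts at an unadjusted *p* under 0.05 in limma stand beside 4.92% of all features higher and 6.58% lower. The lists are small, and none was tested as a whole. Of the 7 markers of cortical projection neurons 6 lay above 0 (median 0.23 on the log2 scale), and *Neurod2* (0.31) and *Bcl11b* (0.31) were higher at an unadjusted *p* under 0.05. Their median was 0.14 without wild-type replicate 3 or dKO replicate 3 and 0.13 without dKO replicate 1, and 0 of them were at this limit without wild-type replicate 1 or dKO replicate 1. All 3 markers of intermediate progenitors were higher at an unadjusted *p* under 0.05 (median log2 fold change 0.49), with sums of 2288 to 3398 normalized counts in the wild-type and 3711 to 4709 in dKO libraries. All 7 proliferation markers lay above 0, 4 of them at this limit (median 0.33), with sums of 9816 to 11039 and 12233 to 13146. By immunofluorescence at the same age, the study counted fewer TBR2-positive progenitors and fewer SOX2-positive cells in the dKO cortex. Those are counts of stained cells, whereas the values here are RNA of the whole cortex, and the difference was not tested. Of 7 radial glia markers 4 lay above 0 and 3 below (median 0.099, range -0.51 to 0.28, 2 higher and 0 lower at this limit), with sums of 40209 to 50827 and 41650 to 50672. Without wild-type replicate 1 the median of the radial glia markers was -0.012. Without wild-type replicate 2, 1 of them was higher and 2 were lower at this limit, and the same counts held without dKO replicate 2. All 4 markers of the oligodendrocyte lineage lay below 0 and 3 were at this limit (median -0.75), with sums of 6600 to 11467 and 3592 to 6205, and 1 was at this limit without wild-type replicate 1. The 4 meningeal markers also lay below 0 (median -0.76, with *Dcn* at this limit), with sums of 273 to 924 and 272 to 338, and 0 were at this limit without wild-type replicate 3 or dKO replicate 1. Markers of interneurons, endothelial cells, microglia and erythroid cells had medians of -0.024, -0.17, -0.064 and 0.20 (0.17, -0.11, 0.087 and 0.33 without wild-type replicate 3), and 1 of them, the endothelial receptor gene *Flt1*, was lower at this limit. No marker of these lists was listed at 0 in all libraries, and 0 of them passed an adjusted *p* of 0.05 in limma. Without dKO replicate 1, 1 of the 3 markers of intermediate progenitors and 4 of the 7 proliferation markers were at an unadjusted *p* under 0.05. Without dKO replicate 3, 2 of the proliferation markers were.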

How the data were processed

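PolyA+ RNA libraries of 3 wild-type and 3 dKO cortices were prepared with a stranded kit and sequenced as paired ends. The submitters' processing notes name STAR 2.7.5a, SAMtools, Picard, FastQC, DESeq2 and mm10, and the counting program and strand setting are not given in the sources used here. The authors deposited 1 signal per gene and library, its reads scaled by a size factor. Within 0.01 read, 100.0% of the values were whole multiples of 1 read, so the reads were recovered (31837922 to 40896541 per library, the fewest for a gene described here being 167 in 1 library). The table has 0 columns that were not used.

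For the 18970 features whose mean reached 10, log2 values (pseudocount 1) of both genotypes were fitted in limma 3.58.1 under R 4.3.3, using lmFit and eBayes with its trend and robust settings, with Benjamini-Hochberg adjustment and a threshold of 0.05. Fold changes on this scale understate the change of low genes. Exact permutation tests (two-sided) served for single values. Alternatives were edgeR 4.0.16 and DESeq2 1.42.0 on the recovered reads, TMM and quantile scaling, pseudocounts of 0.1 and 10, filters at a mean of 1 and 50, limma without trend and robust, the replicate number as a block, removal of the length trend, a threshold of 0.1 and the omission of each library. The fit was tested on simulated data. Shared sequence was counted in windows of 100 bases of GENCODE M21 transcripts. Python 3.11.15, pandas 2.3.3 and scipy 1.17.1 were used for the rest.

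Values per library are given for genes at an unadjusted *p* under 0.05, for *Wdr33* and *U2af1*, for the highest gene of each complex per kb and for paralogue sets. From each other pathway list the 2 genes with the smallest *p* are named, except 1 result that is not reported here. *Nudt21* and the cell type markers that are named were singled out after their values were seen. The genes and lists were chosen with earlier results of these data known. *Snrpn*, *Ppp1r10* and *Gemin4* were not matched by name and are not analysed here, nor are splicing and poly(A) site usage.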

Additional observations from a re-analysis of the deposited data

How the results depend on the processing

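None of the 41 genes had an adjusted *p* under 0.05 in any of the alternatives run, and the median log2 fold change stayed above 0, between 0.060 (quantile scaling) and 0.11 (edgeR). At an adjusted *p* threshold of 0.1 none passed in the fit reported, whereas *Luc7l3* (0.0635) and *U2af1* (0.0763) passed in DESeq2 and *U2af1* (0.071) in limma without dKO replicate 1. The number of genes at an unadjusted *p* under 0.05, 6 in the fit reported, was 3 under quantile scaling and 3 in limma without trend and robust. When single libraries were omitted it ranged from 2 to 8 and the median log2 fold change from 0.062 to 0.14. The share of all features at an unadjusted *p* under 0.05 in those fits is not given here. Over all features the calls numbered 19 in the fit reported, 7 without trend and robust, 202 with DESeq2, 9 with the length trend removed and 30 at an adjusted *p* under 0.1, and between 7 and 46 when single libraries were omitted. The cause was not tested.

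The replicate numbers were checked for pairing. The correlation of the deviations of same-numbered libraries from their genotype means was 0.098, -0.228 and -0.079, so none was clearly positive. Replicate 1 of each genotype was still tilted towards long genes (Spearman correlation 0.22 in the wild-type and 0.31 in the dKO). Whether same-numbered libraries were processed together was not tested. With the replicate number as a block, 9 of all features were called, 0 of the 41 genes were, and 8 of the 41 genes had an unadjusted *p* under 0.05. The share of all features at an unadjusted *p* under 0.05 in this fit is not given here.

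Genes near 0 crossed it. Under quantile scaling *Cpsf1* stood at -0.024 and *Cstf2t* at -0.059, and with edgeR *Papolg* stood at 0.0023. Omitting single libraries, *Cpsf1* ranged from -0.075 to 0.10, *Cstf2t* from -0.051 to 0.072, *Sf3a2* from -0.010 to 0.17, *Sf3b2* from -0.0097 to 0.14, *Cstf2* from -0.099 to 0.034 and *Papolg* from -0.087 to 0.10. With 3 libraries per genotype the standard error of a log2 fold change was 0.095 at the median of the 41 genes and 0.22 for *Clp1*, which limits what could be detected.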
